A study of Mus musculus with 15 samples.

Results

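The genes described here are 5 genes of mineralized matrix: Dmp1, Spp1, Ibsp, Alpl and Runx2. They were selected on measured values of this same experiment, and the selection records neither the measure nor the contrast used, so every level and difference of these genes is a description and carries no p-value. All probe sets that the array's annotation maps to the 5 symbols were taken. Dmp1 (Entrez gene 13406) had 3 probe sets, Ibsp (15891) had 2 and Alpl (11647) had 1, which makes 6 probe sets of the 45037 on the array and 3 genes of 18193. Spp1 and Runx2 were matched to no probe set by the annotation used, and they are not analysed here.

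Polysomal RNA of kidneys from Col1a1-eGFPL10a transgenic mice was measured on 15 one-colour Affymetrix arrays, in 5 groups of 3. The groups were bound RNA on day 0 (sham surgery), on day 2 and on day 5 of unilateral ureteral obstruction (UUO), and unbound RNA on day 0 (sham) and on day 5 (UUO). In UUO the ureter of 1 kidney is tied, and the kidney scars over days. All 5 groups carried the transgene, which puts the ribosomal protein L10a fused to green fluorescent protein under a collagen 1α1 promoter and enhancer element, and all are labelled C57/129sv, both sexes, postnatal day 14 to 300. In translating ribosome affinity purification (TRAP) the tagged ribosomes are pulled down, so the bound fraction is meant to hold RNA on ribosomes of cells that drive the transgene and the unbound fraction is the RNA left behind, labelled as kidney medulla. Whether a group's arrays hold separate mice, pools or repeats is not labelled, so p-values measure the spread between arrays, which may be technical.

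DMP1, osteopontin (Spp1) and bone sialoprotein (Ibsp) are acidic, phosphorylated secreted proteins of bone and dentin that bind calcium and, through an RGD motif, integrins. Their genes lie side by side with Dspp and Mepe. Tissue-nonspecific alkaline phosphatase (Alpl) hydrolyses pyrophosphate, an inhibitor of mineral formation, and RUNX2 is the transcription factor that osteoblasts need to form. In the kidney Alpl is known from the proximal tubule and Spp1 from tubules, with strong induction after injury. In bone, loss of DMP1 raises the hormone FGF23 and causes phosphate loss through the kidney.

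Dmp1 lies on mouse chromosome 5, and RefSeq lists 2 transcription starts for it. The 300 bases around each start (250 before, 50 from the start on; GRCm38.p6, plus strand) are shown because Dmp1 carries the main pattern below, followed by the start of Ibsp, its neighbour, which did not share that pattern. Capitals mark the core word of RUNX factors, searched on both strands as TGTGGT.
Dmp1 start 1, chr5:104197325-104197624: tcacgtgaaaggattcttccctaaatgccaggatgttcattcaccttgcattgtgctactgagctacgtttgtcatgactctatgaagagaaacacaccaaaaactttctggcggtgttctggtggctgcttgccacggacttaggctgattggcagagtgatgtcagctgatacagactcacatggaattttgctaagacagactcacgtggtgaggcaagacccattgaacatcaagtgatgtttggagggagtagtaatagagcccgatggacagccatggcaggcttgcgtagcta
Dmp1 start 2, chr5:104202367-104202666: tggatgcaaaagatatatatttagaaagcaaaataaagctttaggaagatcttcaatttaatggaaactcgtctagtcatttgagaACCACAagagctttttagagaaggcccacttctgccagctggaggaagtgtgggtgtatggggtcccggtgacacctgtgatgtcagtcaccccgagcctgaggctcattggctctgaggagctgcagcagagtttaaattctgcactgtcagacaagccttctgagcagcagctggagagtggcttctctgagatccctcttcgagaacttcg
Ibsp, chr5:104299037-104299336: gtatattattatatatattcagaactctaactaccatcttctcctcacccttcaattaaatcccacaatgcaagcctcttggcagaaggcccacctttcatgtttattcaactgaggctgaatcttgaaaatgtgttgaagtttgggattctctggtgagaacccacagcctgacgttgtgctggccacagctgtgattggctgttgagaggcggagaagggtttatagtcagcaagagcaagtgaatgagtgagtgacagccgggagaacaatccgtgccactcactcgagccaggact
The word occurred 1 time, in the second Dmp1 window, read as ACCACA with its first base at position -164 from the start. In all, 16.8% of 32851 RefSeq mouse windows of this length hold it. The AP-1 word TGANTCA, held by 7.81% of those windows, was not in the windows of Dmp1, Ibsp or Alpl. These are matches of letters and say nothing of binding.

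Before the results, the state of the arrays is given. The deposited values were linear intensities with array medians between 16.4 and 198.7, and they were compared after log2(value + 1) and quantile normalization. The floor of an array was taken as its highest value among 27 bacterial control probe sets that are not spiked in, and it lay between 3.41 and 5.09 on the normalized log2 scale. Arrays 6, 9, 12 and 15 were brighter than the rest, with spiked controls averaging 12114 to 12905 against 4727 to 5864 on the other 11. In that order they belong to the day 0 unbound, day 2 bound, day 5 bound and day 5 unbound groups. The day 0 bound group holds no bright array, so contrasts with it are unbalanced in brightness. Array 11, of the day 5 bound group, stood apart in RNA quality, with a 5′ to 3′ Gapdh ratio of 0.0269 against 0.178 to 0.583 on the other 14. Of the 8 fibroblast markers, 7 were past the threshold and higher in bound than unbound RNA on day 0, as were 5 of 8 pericyte and smooth muscle markers and 6 of 6 podocyte markers measured. Tubule RNA was still present in the bound fraction on day 0. Past the threshold and lower in bound than unbound RNA were 1 of 8 loop and distal tubule and 1 of 7 collecting duct markers. So were 3 of 8 injured tubule and 0 of 8 proximal tubule markers. At an unadjusted p under 0.05 in limma, 3, 4, 5 and 1 markers of these lists were lower, in that order. Their median differences were -0.72, -0.87, -1.08 and -0.51, beside -0.13 over all genes. Over all genes 4.81% were called higher and 4.1% lower. Umod, the uromodulin gene of the thick ascending limb, averaged 13.53 ± 0.27 in bound RNA and 13.61 ± 0.13 in unbound RNA (SD, n = 3 each).

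Read from its brightest probe set, Dmp1 was at background in sham kidneys and well above it after obstruction, highest in bound RNA on day 5. Its brightest probe set, 1443746_x_at, read 0.3, 4.9 and 0.9 intensity units in bound RNA on day 0, 130.7, 156.2 and 293.1 on day 2, and 601.9, 1899.2 and 1910.9 on day 5. In unbound RNA it read 300.9, 353.0 and 790.8 on day 5, against 1.4, 0.9 and 13.1 on day 0. On this probe set all 6 day 0 arrays were under their floor and all 9 arrays of obstructed kidneys above it. No obstructed group overlapped its day 0 group. Both other Dmp1 probe sets were under the floor on all 3 day 2 bound arrays.

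**Figure D1:**
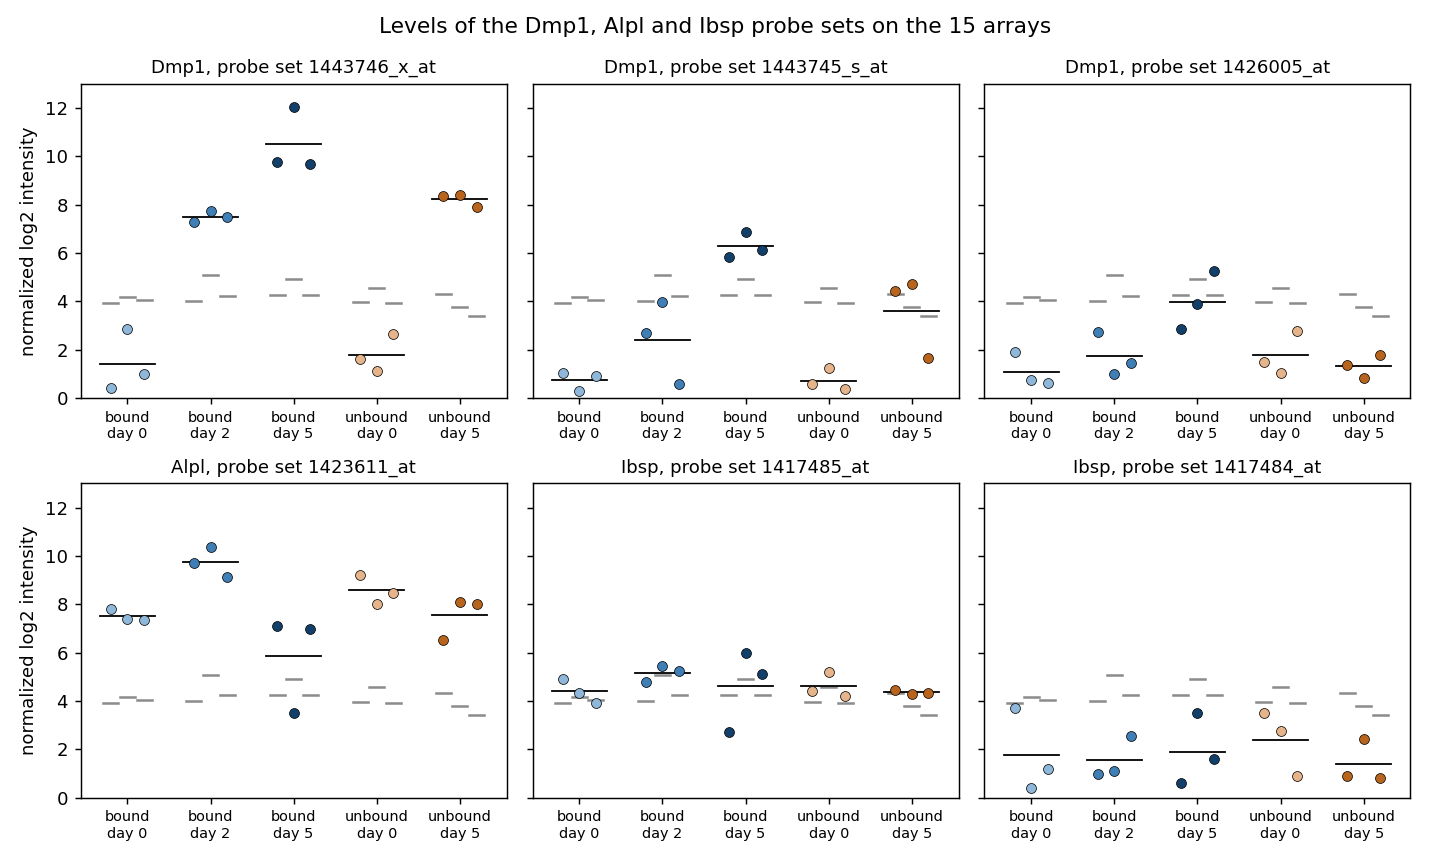
Normalized log2 intensity of the 6 probe sets of Dmp1, Alpl and Ibsp on each of the 15 arrays. Points are arrays, black lines are group means, and grey ticks are each array's own floor. Probe set 1443746_x_at of Dmp1 is above the floor on 9 arrays and under it on the other 6, while Ibsp stays near or under the floor in every group.

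On the normalized log2 scale this probe set averaged 1.42 ± 1.26 on day 0, 7.49 ± 0.23 on day 2 and 10.48 ± 1.35 on day 5 in bound RNA (SD, n = 3 each). In unbound RNA it averaged 8.22 ± 0.27 on day 5 and 1.80 ± 0.77 on day 0 (SD, n = 3 each). From high to low the order was day 5 bound, day 5 unbound, day 2 bound, and then both day 0 groups. The arrays of neighbouring groups in that order did not overlap, other than the day 0 groups, which overlapped and were both under the floor.

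In bound RNA the level was higher on day 2 than on day 0 by 6.07 ± 0.68 log2 units (SE of the limma fit), and higher on day 5 than on day 0 by 9.06 ± 0.68. Because day 0 was under the floor, these are given as bounds against the floor, at least 10.9-fold on day 2 and at least 86.8-fold on day 5. They are bounds for the group means only. The day 5 mean includes array 11, at 12.05 beside 9.75 and 9.66, which makes that bound larger. Between day 5 and day 2, both measured, the difference was 2.99 ± 0.68, or 7.94-fold, and it was 2.20 without array 11. Unbound RNA was higher on day 5 than on day 0 by 6.42 ± 0.68, at least 16.7-fold.

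The bound fraction held more Dmp1 than the unbound fraction on day 5, by 2.27 ± 0.68 log2 units or 4.81-fold, with bound arrays at 9.75, 12.05 and 9.66 and unbound arrays at 8.34, 8.40 and 7.91. The highest value belonged to array 11. Without array 11 the day 5 difference between fractions was 1.48 and the bound difference between day 5 and day 0 was 8.36. On day 0 both fractions were under the floor, so no ratio is given.

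**Figure D2:**
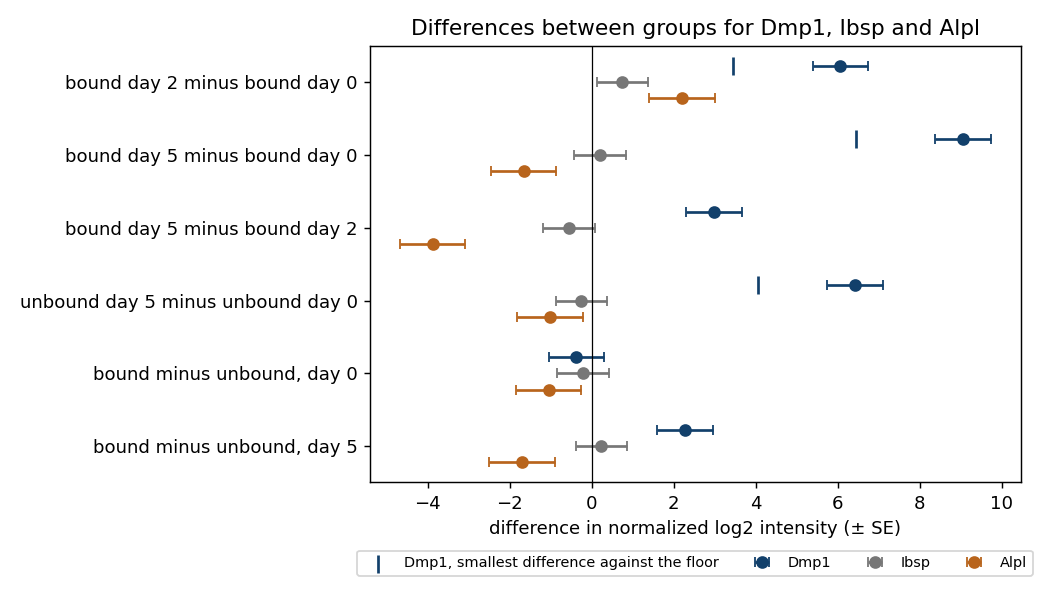
Differences in normalized log2 intensity for Dmp1, Ibsp and Alpl, with the SE of the limma fit, in 6 contrasts, each named on the vertical axis. Vertical ticks give the Dmp1 difference when day 0 is set to the floor. Dmp1 is far above 0 in every contrast with a day 0 group of the same fraction, while Ibsp lies within 0.75 of 0 throughout and Alpl is above 0 on day 2 and below 0 in the other contrasts.

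The other Dmp1 probe sets were dimmer. Probe set 1443745_s_at, a type whose probes can be shared by several transcripts, was above the floor on 5 of 15 arrays. These were all the day 5 bound arrays, at 5.84, 6.85 and 6.14, and 2 of the 3 day 5 unbound arrays, at 4.44 and 4.72, with 1.66 on the third. Its day 5 bound level was at least 4.69-fold that of day 0 and at least 4.24-fold that of day 5 unbound RNA. On day 2 it was under the floor on all 3 arrays, where 1443746_x_at was well above it.

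Probe set 1426005_at was above the floor on 1 of 15 arrays, a day 5 bound array at 5.25 (68.0 intensity units). Across the 15 arrays 1443746_x_at and 1443745_s_at had a Pearson correlation of 0.838, and 1426005_at had 0.513 with the first and 0.575 with the second. These are descriptions over arrays that share their groups. The brightest set is of the type whose probes may also match other sequences. Between the probe sets, detection on day 2 and the size of the Dmp1 difference differed.

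Alkaline phosphatase was high on day 2 and low on day 5. Probe set 1423611_at of Alpl read 7.82, 7.40 and 7.34 log2 units on day 0, 9.72, 10.35 and 9.13 on day 2, and 7.09, 3.49 and 6.99 on day 5 in bound RNA. In unbound RNA it read 6.53, 8.08 and 8.03 on day 5, against 9.22, 8.03 and 8.47 on day 0. Every day 2 bound array exceeded every day 0 and day 5 bound array, while the unbound groups overlapped.

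Day 2 bound RNA exceeded day 0 by 2.21 ± 0.80, or 4.64-fold, and day 5 was under day 2 by a difference of -3.88 ± 0.80, or 14.7-fold (-2.69 without array 11). Day 5 bound RNA differed from day 0 by -1.66 ± 0.80, or -0.49 without array 11, which holds the lowest Alpl value, under its floor. The bound fraction differed from the unbound one by -1.69 ± 0.80 on day 5, with overlap (-0.51 without array 11), and by -1.05 ± 0.80 on day 0, without overlap. Unbound RNA differed between day 5 and day 0 by -1.02 ± 0.80. The summed level of 8 proximal tubule markers ran from 12499 to 22025 on day 0, 3016 to 12331 on day 2 and 2404 to 3942 on day 5 in bound RNA. The summed level of 8 injured tubule markers was 4308 to 7238 on day 0 and 19961 to 43428 on day 2 in bound RNA. On day 5 it was 14315 to 26141. The part of tubule cells in the Alpl values was not tested. In bulk RNA, fewer cells of a type and less RNA per cell cannot be told apart.

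Bone sialoprotein stayed at the edge of detection. Probe set 1417485_at of Ibsp was above the floor on 13 of 15 arrays but close to it, with group means between 4.36 and 5.15. In bound RNA it read 4.93, 4.34 and 3.93 on day 0, 4.77, 5.43 and 5.25 on day 2, and 2.72, 5.97 and 5.12 on day 5. Unbound arrays read 4.47, 4.30 and 4.32 on day 5, against 4.40, 5.22 and 4.22 on day 0. The groups overlapped in all 6 contrasts, with differences between -0.55 and 0.75 and an SE of 0.63. The second Ibsp probe set, 1417484_at, was under the floor on all 15 arrays.

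In the fit over 16864 genes, Dmp1 was past the threshold (limma, Benjamini-Hochberg adjusted p under 0.05) and higher in 4 contrasts, as 1 of the 3 measured genes each time, and Ibsp and Alpl were past it in none of the 7. The shares of all genes that were called higher in these contrasts were 5.6% for bound day 2 over day 0, 13.7% for bound day 5 over day 0, 6.43% for unbound day 5 over day 0 and 6.37% for bound over unbound on day 5. Nothing is read from these counts, since the genes were chosen on such values. Groups without overlap were common too. For bound day 5 against day 0 they were found for 40.4% of all genes, for bound day 2 against day 0 for 21.5%, for bound day 5 against day 2 for 14.7% and for unbound day 5 against day 0 for 45.9%. For bound against unbound RNA they were found for 36.8% on day 0 and 43% on day 5.

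On chromosome 5 the genes run in the order Sparcl1, Dspp, Dmp1, Ibsp, Mepe, Spp1 and Pkd2, and 5 of the 7 had a measured level. Dspp, the dentin sialophosphoprotein gene next to Dmp1, rose in bound RNA on day 5 by 3.47 ± 0.59 log2 units (limma adjusted p = 0.00164). Against the floor this was at least 1.88-fold. That day Dspp was higher in bound than unbound RNA by 2.55 ± 0.59 (adjusted p = 0.0162), or at least 2.17-fold. Both folds are bounds against the floor. Here and below, a p-value beside a bound is from limma on values not set to the floor. On day 2, as on day 0, Dspp was under the floor on all 3 bound arrays. Its signal was low, 4.95 ± 0.37 in day 5 bound RNA against 1.48 ± 0.40 on day 0 (SD, n = 3 each), and it was above the floor on only 2 of the 15 arrays, both day 5 bound.

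Sparcl1, the outer neighbour and a relative of osteonectin, was bright throughout. It rose in bound RNA on day 5 (1.72 ± 0.38, limma adjusted p = 0.00765) and was higher in bound than unbound RNA on both days, by 2.03 ± 0.38 on day 5 (adjusted p = 0.00699) and 1.37 ± 0.38 on day 0 (adjusted p = 0.0445). Mepe passed the threshold in no contrast, and it was above the floor on 1 array, of day 2 bound RNA. Ibsp, between Dmp1 and Mepe, had the values given above.

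**Figure D3:**
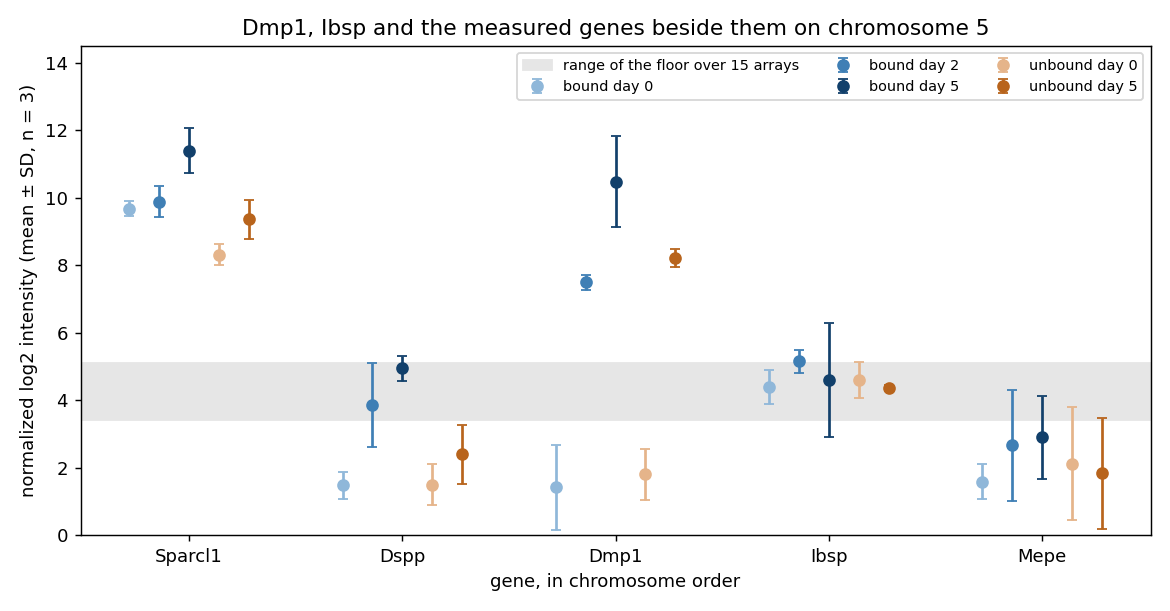
Mean normalized log2 intensity ± SD (n = 3 arrays) of Dmp1, Ibsp and the measured genes beside them, in chromosome order, for the 5 groups. The grey band is the range of the floor over the 15 arrays, 3.41 to 5.09. Dmp1, shown by probe set 1443746_x_at, lies under the band on day 0 and above it in every obstructed group. Sparcl1 lies above it throughout, and the means of Dspp, Ibsp and Mepe lie at most at 5.15.

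Genes with a pattern like each member were taken as the 5 with the highest Pearson correlation over the 15 arrays, as a description. For Dmp1 these were Adamts12 (0.972), a secreted metalloprotease, Plscr3 (0.971), a phospholipid scramblase, Cdc20 (0.965), an activator of the anaphase-promoting complex, Gp1bb (0.965), and Thy1 (0.965), a surface protein of fibroblasts. Thy1 averaged 6.74 ± 0.34 on day 0, 11.45 ± 0.58 on day 2 and 12.66 ± 0.15 on day 5 in bound RNA, and 11.07 ± 0.32 on day 5 and 5.81 ± 0.25 on day 0 in unbound RNA (SD, n = 3 each). Adamts12 averaged 6.35 ± 0.82, 10.19 ± 0.70 and 11.69 ± 0.32 over the same bound series and 10.25 ± 0.22 on day 5 against 6.27 ± 0.40 on day 0 in unbound RNA. Both were above the floor on day 0, where Dmp1 was not. For Alpl the closest were Gnl3l (0.828), Ppp4r3a (0.827), Eml6 (0.82), Crebzf (0.817) and Ccar2 (0.805). For Ibsp they were Efcab9 (0.836), Grin2b (0.835), Pcdhb18 (0.833), Rnf17 (0.808) and Tcl1b1 (0.806), and the group means of all 5, between 1.91 and 4.85, lay near or under the floor.

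Genes linked to mineralization were read from 6 lists of 94 genes without the 5 members, of which 84 were matched and 80 tested. The lists were chosen with earlier results of these data known. Their shares and p-values therefore describe these data and are not independent evidence. In bound RNA 25 genes rose and 7 fell on day 5 against day 0, 31.2% and 8.75% of those tested, where 13.7% of all genes were higher and 9.99% lower. On day 2 against day 0, 16 rose and 6 fell, 20.0% and 7.5%, where 5.6% of all genes were higher and 3.65% lower. In unbound RNA on day 5 against day 0, 19 rose and 4 fell, beside 6.43% higher and 3.93% lower over all genes. Without the 4 bright arrays the calls of either direction were 24 in place of 32 on day 5 and 12 in place of 22 on day 2 in bound RNA, and 15 in place of 23 in unbound RNA. With arrays centred on their medians in place of quantile normalization, 12 list genes were higher and 5 lower in unbound RNA. Over all genes that scaling gave 638 higher and 726 lower in unbound RNA in place of 1085 and 662, and 2406 higher and 1092 lower in bound RNA on day 5 in place of 2312 and 1684, where the median difference of all genes was 0.34 in place of 0.12.

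Among matrix proteins and relatives of Dmp1, 4 of 14 tested genes rose and 2 fell in bound RNA on day 5, with a median difference of 0.29 beside 0.12 over all genes. Cthrc1, a secreted protein of remodelling matrix, rose at least 25.5-fold (limma adjusted p = 0.000684), a bound since day 0 was under the floor. Tnn, a tenascin, fell by 3.62 (adjusted p = 0.0119) and averaged 7.45 ± 1.54 on day 5 against 11.07 ± 0.25 on day 0. Omd, osteomodulin, fell by 1.85 (adjusted p = 0.0311). Both were lower in unbound RNA on day 5 too.

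Among enzymes that cut or phosphorylate these proteins, 8 of 14 rose and 1 fell in bound RNA on day 5, with a median difference of 1.65. Bmp1, a protease that cleaves the DMP1 and DSPP precursors, averaged 10.15 ± 0.33 on day 5 against 6.37 ± 0.16 on day 0 (SD, n = 3 each), a rise of 3.77 ± 0.28 (limma adjusted p = 6.83e-06). It rose by 2.64 ± 0.28 on day 2 and by 2.66 ± 0.28 in unbound RNA on day 5. The matrix metalloproteases Mmp7, at least 17.8-fold, Mmp9 (4.41 ± 0.47) and Mmp14 (3.26 ± 0.43) rose in bound RNA on day 5, and Mmp7, known to cut osteopontin, was lower in bound than unbound RNA that day (-2.06 ± 0.55, adjusted p = 0.0294). Fam20c, the kinase of secreted phosphoproteins, was the single gene of this list that fell there, by 1.47 (limma adjusted p = 0.0266), and it is named for that after its value was seen.

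Among receptors of osteopontin and its relatives, 5 of 10 rose and 1 fell in bound RNA on day 5, with a median difference of 0.92. The integrin subunit Itgb3 rose at least 8.89-fold (limma adjusted p = 0.00994), with day 0 under the floor. Cd44, a hyaluronan receptor that also binds osteopontin, rose by 3.19 ± 0.33 (adjusted p = 6.98e-05) and averaged 8.94 ± 0.08 on day 5 against 5.75 ± 0.50 on day 0. Itga9 rose by 2.49 ± 0.31, and it was higher in bound than unbound RNA on day 5 by 2.22 ± 0.31 (adjusted p = 0.00286). Itga8 went the other way in bound RNA, with 9.12 ± 0.51 on day 5 against 10.77 ± 0.23 on day 0.

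Among transcription factors of osteoblasts and chondrocytes, 5 of 17 rose in bound RNA on day 5 and the other 12 did not pass, with a median difference of 1.02. Twist2, a repressor of early osteoblast maturation, rose by 3.99 ± 0.92 (limma adjusted p = 0.00927). Runx1, a relative of the unmeasured Runx2, rose by 2.93 ± 0.37 (adjusted p = 0.000284), with 9.64 ± 0.21 on day 5 against 6.72 ± 0.31 on day 0. Sox9, the master factor of cartilage, rose by 2.45 ± 0.59 (adjusted p = 0.0121), and it rose by 3.76 ± 0.59 in unbound RNA (adjusted p = 0.00201).

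Of 11 genes that regulate phosphate and pyrophosphate, 2 rose and 1 fell in bound RNA on day 5 and the other 8 did not pass, beside 13.7% higher and 9.99% lower over all genes. Slc20a2, a sodium phosphate transporter, rose by 1.70 ± 0.31 (limma adjusted p = 0.00275), and Ppa1, an inorganic pyrophosphatase, by 1.09 ± 0.23 (adjusted p = 0.00625). Spp2, a secreted phosphoprotein, was at least 9.28-fold lower (adjusted p = 0.00106). Of 14 osteocyte and phosphate hormone genes, 1 rose and 2 fell. Tnfrsf11b, which encodes the decoy receptor osteoprotegerin, was at least 2.38-fold higher, at 5.30 ± 0.10 on day 5 against 2.01 ± 1.02 on day 0 (adjusted p = 0.000466). Klotho (Kl), the co-receptor of FGF23, fell by 3.07 (adjusted p = 0.00136) and averaged 6.52 ± 0.43 on day 5 against 9.59 ± 0.53 on day 0. Klotho is a tubule gene, and 7 of 8 loop and distal tubule markers fell in the same contrast; their part in its fall was not tested.

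**Figure D4:**
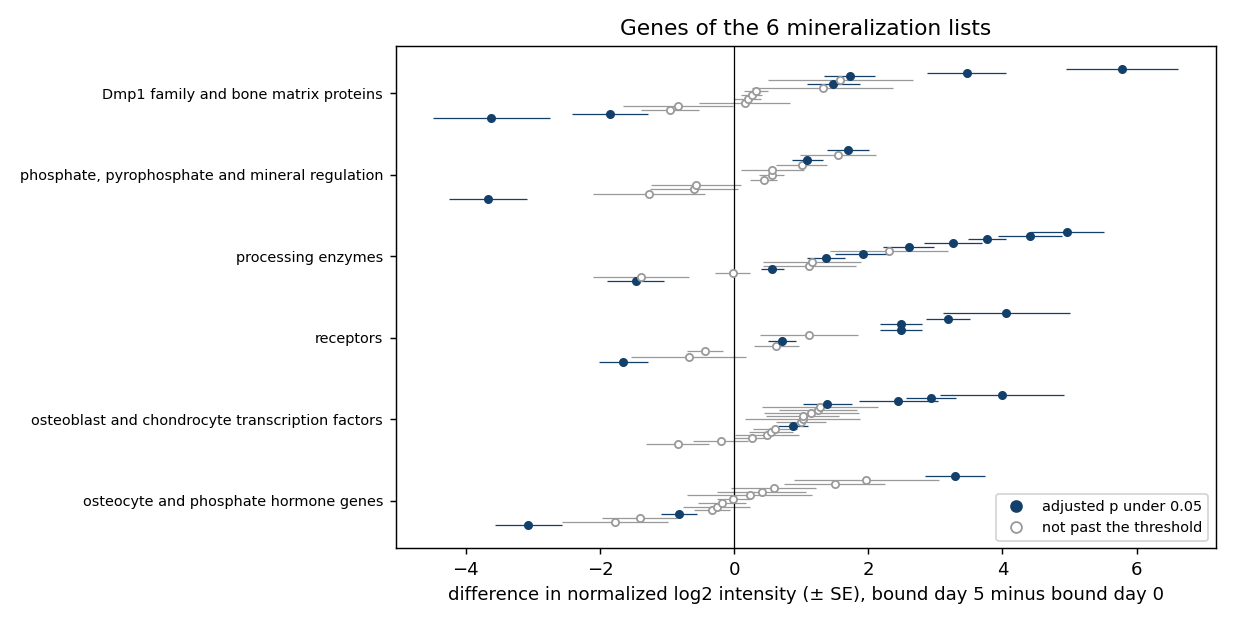
Differences in normalized log2 intensity between day 5 and day 0 bound RNA (± SE of the limma fit) for the 80 tested genes of the 6 lists, 1 point per gene. Filled points passed the adjusted threshold, 25 higher and 7 lower, and open points did not.

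Between day 5 and day 2 in bound RNA only Mmp2 of the 80 genes rose (2.08 ± 0.28, limma adjusted p = 0.00775) and 0 fell. At an unadjusted p under 0.05 the same limma fit had 15 higher and 4 lower, and over all genes 0.51% were called higher and 0.0771% lower. The count moved with single arrays, to 16 without array 8 and to 2 without array 1, 2, 9 or 11, and no gene passed in limma without the bright arrays (17 at an unadjusted p under 0.05).

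Between the fractions, 18 of the 80 genes were higher and 4 lower in bound than unbound RNA on day 5, beside 6.37% and 7.74% of all genes. On day 0, 14 were higher and 2 lower, beside 4.81% and 4.1% of all genes. Without the bright arrays the limma calls of either direction were 0 in place of 22 on day 5, with 32 at an unadjusted p under 0.05 and 0 calls over all 16521 genes tested, and 4 in place of 16 on day 0. Centring on medians gave 1607 genes higher and 759 lower over all genes on day 5, in place of 1075 and 1305. On day 5 Twist2 (3.95 ± 0.92, limma adjusted p = 0.0172), Twist1 (2.98 ± 0.58, adjusted p = 0.00853) and Fam20a (2.45 ± 0.41, adjusted p = 0.0046), a pseudokinase partner of Fam20c, were among the higher, and Plau (-3.70 ± 0.71, adjusted p = 0.00807), the urokinase gene, among the lower. On day 0 Mgp, an inhibitor of soft tissue calcification, was higher by 1.61 ± 0.20 (adjusted p = 0.000974). The change in the difference between fractions from day 0 to day 5 passed the threshold for 0 of the 80 genes in limma (18 at an unadjusted p under 0.05) and for 0.0178% of all genes.

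Cells of bone were checked through 8 markers of osteoblasts, osteocytes and osteoclasts, of which 7 were matched; 6 of the 8 also stand in the mineralization lists. Their summed level was 383 to 494 on day 0, 446 to 676 on day 2 and 1346 to 1886 on day 5 in bound RNA, and 340 to 622 on day 5 against 319 to 451 on day 0 in unbound RNA. Cathepsin K (Ctsk), which fibroblasts also make, made up 1122 to 1635 of that sum on day 5 against 261 to 295 on day 0 in bound RNA, and the other markers summed to 182 to 251 against 122 to 199. Ctsk was the single marker that passed, rising by 2.23 ± 0.35 in bound RNA on day 5 (limma adjusted p = 0.001). Of the other markers, Phex and Mepe were at or under the floor on all 3 arrays of day 5 bound RNA. Acp5 averaged 6.82 ± 0.49 on day 5, above the floor, against 6.55 ± 0.72 on day 0 (SD, limma adjusted p = 0.808). Ifitm5 averaged 4.10 ± 1.76 against 2.51 ± 1.26 (adjusted p = 0.311), with both means at or under the floor. The day 0 mean of Sp7 was at or under the floor too, and against the floor its difference was 0.9. Sp7, the osteoblast factor osterix, read 5.05 ± 1.06 on day 5 against 3.90 ± 0.52 on day 0 (difference 1.15 ± 0.71, adjusted p = 0.264), and Sost, an osteocyte gene, 4.50 ± 1.25 against 4.76 ± 0.39 (adjusted p = 0.745).

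Markers of other cell types were set beside Dmp1. In bound RNA on day 5 against day 0, 4 of 8 injured tubule and 4 of 8 pericyte and smooth muscle markers rose. So did 3 of 8 fibroblast and 2 of 8 macrophage and monocyte markers. Over all genes 13.7% were higher and 9.99% lower. In the same contrast 7 of 8 proximal tubule, 7 of 8 loop and distal tubule, 6 of 7 collecting duct, 6 of 6 podocyte and 4 of 8 endothelial markers fell. In bound RNA the summed level of 8 injured tubule markers was 4308 to 7238 on day 0, 19961 to 43428 on day 2 and 14315 to 26141 on day 5, and in unbound RNA it was 39994 to 41966 on day 5 against 10301 to 11308 on day 0. The 8 macrophage and monocyte markers summed to 6262 to 15766 on day 5 against 2262 to 7171 on day 0 in bound RNA, where the ranges overlapped, and to 23202 to 28191 against 6138 to 8776 in unbound RNA. Both lists were brighter in unbound than bound RNA on day 5. The 8 fibroblast markers summed to 28600 to 32912 on day 0, 39162 to 50560 on day 2 and 43747 to 49786 on day 5 in bound RNA, and to 26999 to 28025 on day 5 against 7075 to 8799 on day 0 in unbound RNA. The 8 pericyte and smooth muscle markers summed to 36196 to 36963 on day 5 against 20550 to 27749 on day 0 in bound RNA. In unbound RNA they summed to 16179 to 18996 on day 5 against 6012 to 7964 on day 0. The part of any of these cells in the Dmp1 values was not tested.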

How the data were processed

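Per the labels, polysomal RNA was amplified in 1 round with a NuGEN kit, labelled with biotin and hybridized to Affymetrix mouse arrays. The deposited values are the authors' linear intensity per probe set. How probes were summarized, corrected for background or scaled is not given in the sources here. Of 45037 probe sets, 34945 had 1 gene through the platform annotation (34741 by Entrez identifier), 932 several and 9160 none. Values were taken as log2(value + 1) and quantile normalized over 15 arrays. The probe set with the highest mean stood for a gene. A gene was tested if its value exceeded the array's 25th percentile in 3 arrays or more, which left 16864. limma 3.58.1 (R 4.3.3) was fitted to all arrays with 1 coefficient per group, 7 contrasts, two-sided, adjusted by Benjamini-Hochberg within each. The fit was also run on simulated data with known shifts and independent normal noise. These data had no floor, no bright arrays and no array of poor RNA quality, so they do not test the effect of those. Within groups arrays correlated at 0.918 to 0.973, and none were identical. No detection calls were used, and the number of arrays limits the precision. The members and lists were chosen with earlier results of these data known. Named genes are the members, their chromosomal neighbours, the 5 genes most like each member, and per list and contrast up to 4 with the largest differences among those that passed. Fam20c, Itga8, the fraction difference of Mmp7 and the bone markers named beside Ctsk fall outside that rule. They were named after their values were seen. Alternatives were other scales, pseudocounts, filters, probe sets, priors, array weights, brightness and arrays left out.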

Additional observations from a re-analysis of the deposited data

Results flagged for a closer look

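Alpl was flagged because its arrays moved to opposite sides of the day 0 level at the 2 time points of obstruction. In bound RNA its difference from day 0 was 2.21 on day 2, where each of the 3 arrays lay above all day 0 arrays, and -1.66 on day 5, where each of the 3 lay below them. Without array 11, which is under its floor and stands apart in RNA quality, the day 5 difference was -0.49. Groups without overlap were found for 21.5% of all genes on day 2 and 40.4% on day 5. Both differences share the day 0 arrays, and the difference between them was not tested.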

How the results depend on the processing

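No paired analysis was possible because the labels give each array a number of its own, which no other group shares. For Dmp1 in bound RNA on day 2 against day 0 (main 6.07), the difference was 3.42 with a pseudocount of 16, 2.79 with the mean of all probe sets, 3.45 with arrays set to at least the floor, and, in alternatives added after the data were seen, 0.65 with probe set 1426005_at and 1.67 with 1443745_s_at. On day 5 (main 9.06) the same settings gave 6.30, 5.83, 6.44, 2.91 and 5.53. In unbound RNA on day 5 (main 6.42) they gave 4.05, 2.95, 4.06, -0.44 and 2.89, where 1426005_at is under the floor in both groups. The other 20 settings of each kept the value within the spread between arrays. Leaving out 1 array each time gave ranges of 5.59 to 6.81, 8.36 to 9.80 and 6.09 to 6.79, 1.48 to 2.68 for bound minus unbound on day 5, and 2.20 to 3.39 for bound day 5 against day 2.

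Counts of list genes past the threshold moved more. At an adjusted p under 0.01 they were 11 (bound day 2 against day 0), 15 (unbound), 9 (fractions, day 0) and 12 (fractions, day 5). Without the bright arrays they were 12, 15, 4 and 0, and 0 for bound day 5 against day 2. With only the groups of the contrast they were 6, 35 in unbound RNA and 0 for day 5 against day 2. With array weights they were 38 in unbound RNA, 31 and 46 for the fractions on day 0 and day 5, 0 for day 5 against day 2 and 12 for the change between fractions, which had 2 with a trended robust prior. For day 5 against day 2 (main 1) the count was 2 with centred arrays, 4 with a pseudocount of 16, 4 with the mean of probe sets, 5 with the trended prior and 3 with arrays at the floor. For the fractions on day 0 centred arrays gave 7. Leaving out 1 array each time gave 15 to 24 (day 2), 23 to 38 (day 5), 1 to 16 (day 5 against day 2), 16 to 27 (unbound), 9 to 23 and 14 to 30 (fractions on day 0 and day 5). The fractions on day 0 gave 9 without array 2, 9 without array 4 and 10 without array 5, and those on day 5 gave 14 without array 14. The cause of these moves was not tested. On each array 25.3% to 43.7% of probe sets were at or under the floor, where differences cannot be sized.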
